A study of Mus musculus with 16 samples.

Results

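Bone morphogenetic protein (BMP) signalling and the Id genes were followed as 10 transcripts, chosen by gene symbol and present in both deposited tables, of 24063 genes in each table. The members were the ligand gene Bmp4, the receptor genes Bmpr1a, Bmpr2 and Acvr1, the inhibitory Smad genes Smad6 and Smad7, and the target genes Id1, Id2, Id3 and Id4. RNA came from AtT-20 cells, a line grown from a mouse pituitary tumour of corticotrope cells, which express the hormone precursor gene Pomc, and all groups were depleted of ribosomal RNA and sequenced as 50 bp paired ends. Untreated cells carried 3x flag-Pax7 (2 libraries) or the 3x flag-Neo control (2 libraries). Cells carrying 3x flag-ER-Pax7, a fusion of Pax7 with an oestrogen receptor part, had received no induction (0 h) or 12, 24 or 96 h of 4-hydroxy-Tamoxifen, with 3 libraries at each time. Pax7 is the pioneer transcription factor that specifies melanotropes, which share Pomc expression with corticotropes, in the pituitary. Pax7 and Neo cells are 1 pair of populations, and no vehicle-treated ER-Pax7 cells were analysed here, so Pax7 activity cannot be told apart from differences between those populations, from the drug or from time in culture.

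BMP ligands bind pairs of type I receptors (Bmpr1a, Acvr1) and type II receptors (Bmpr2), which phosphorylate Smad1, Smad5 and Smad9. These enter the nucleus with Smad4 and switch on genes that include the Id genes, while Smad6 and Smad7 feed back to block the receptors. Id proteins carry a helix-loop-helix but no DNA-binding basic region, and they hold E proteins such as Tcf3 and Tcf4 away from E-box DNA. In corticotropes BMP4 is known to restrain Pomc transcription.

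The 250 bases before the transcription start are shown for the 3 Id genes with an entry in the RefSeq promoter table (GRCm38.p6), because Id2 and Id3 were both called higher in Pax7 cells while Id4 had no reads. Of the 10 members, 8 had an entry. Capitals mark GGCGCC, a GC-rich element bound by Smad1 and Smad5, and the E-box CANNTG. The windows are chr12:25096093-25096342 on the minus strand (Id2), chr4:136143572-136143821 on the plus strand (Id3) and chr13:48260866-48261115 on the plus strand (Id4), all printed 5′ to 3′ in the direction of transcription.
Id2: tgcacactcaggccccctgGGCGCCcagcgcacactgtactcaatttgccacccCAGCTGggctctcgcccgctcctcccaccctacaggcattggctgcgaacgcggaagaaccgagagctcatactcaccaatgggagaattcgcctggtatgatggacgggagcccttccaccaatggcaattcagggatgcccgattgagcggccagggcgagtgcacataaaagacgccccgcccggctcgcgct
Id3: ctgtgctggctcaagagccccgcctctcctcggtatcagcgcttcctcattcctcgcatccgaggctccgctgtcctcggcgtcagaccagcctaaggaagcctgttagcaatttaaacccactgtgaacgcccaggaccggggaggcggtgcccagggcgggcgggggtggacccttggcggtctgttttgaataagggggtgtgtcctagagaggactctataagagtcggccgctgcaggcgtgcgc
Id4: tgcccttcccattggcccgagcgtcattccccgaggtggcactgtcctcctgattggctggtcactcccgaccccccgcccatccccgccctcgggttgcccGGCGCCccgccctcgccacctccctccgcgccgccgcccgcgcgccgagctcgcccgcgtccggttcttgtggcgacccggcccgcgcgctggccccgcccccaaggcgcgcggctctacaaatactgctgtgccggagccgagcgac

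The Id2 window held 1 GGCGCC, at 231 bases before the start, and 1 E-box, CAGCTG, at 196 bases. The Id4 window held 1 GGCGCC at 148 bases, and the Id3 window held neither motif. Among 32851 promoter windows of the same 250 bases, 9.59% held GGCGCC and 66.2% held CANNTG, both of which read the same on both strands and do not overlap in these windows. None of the 3 windows held GTCTAGAC, a palindromic Smad element (0.167% of promoters), or TGACGTCA, a cyclic AMP response element (1.55%). GC content was 62.8% in the Id2 and Id3 windows and 75.6% in the Id4 window, against a median of 52.4% over all promoters. The Id2 and Id3 windows end at the start of the deposited gene model, and the RefSeq start of Id4 lies 311 bases away from that of the deposited model.

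The ER-Pax7 table holds exon reads per gene scaled to a common total, and its libraries held 61.4 to 88.7 M counted reads. The Pax7 and Neo table holds FPKM over whole gene bodies, introns included, with an estimated 44.1 to 54.6 M counted reads. Values below are these deposited values divided by a normalisation factor per library, and levels are not compared across the tables. A difference is a log2 difference on the log2(value + pseudocount) scale, with 1 scaled read or 0.1 FPKM as the pseudocount, and it was called when limma's p adjusted over all genes tested was under 0.05. Pax7 itself had 2.28 and 2.36 FPKM in Pax7 cells, against 0 and 0.0104 FPKM in Neo cells, and in ER-Pax7 cells it had 1646 to 1909 scaled reads, including at 0 h. It was called higher at 96 h than at 0 h (0.13, limma adjusted p = 0.0132), without overlap of the libraries. This call was lost without 0 h replicate 3 (0.12, adjusted p = 0.0511), and the part of this difference in the results below was not tested. Pomc was abundant in all libraries. Of 5 corticotrope markers that include Pomc, 3 were called in Pax7 against Neo cells, all lower, where 36.6% of all genes were called. They were Nr3c1, Pitx1 and Crhr1, and Pomc was not called. The Nr3c1 call (-0.55) held without each library in turn. Pitx1 (-0.23) was not called without Neo replicate 1, Neo replicate 2 or Pax7 replicate 1 (-0.236, -0.226 and -0.162). Crhr1 (-0.55) was not called without either Pax7 library (-0.539 and -0.565) and was not tested without either Neo library. At 96 h against 0 h 4 of the 5 markers were called, 2 higher and 2 lower, where 33.8% of all genes were called. Of 13 markers of other pituitary, endothelial, fibroblast and immune cells, Prl and Fshb were at 0 in all 16 libraries. Lhb, Pecam1, Cd68 and Col1a1 were above 0 in all 16 libraries. The 13 markers summed to 0.966 to 0.972 FPKM in Pax7 cells, against 0.752 to 0.768 FPKM in Neo cells. The same sum was 35.3 to 47.8 scaled reads at 0 h, 37.9 to 42.0 at 12 h, 34.0 to 39.9 at 24 h and 30.2 to 36.3 at 96 h. In it Cd68 was higher in Pax7 cells (0.77, and 0.22 with 1 FPKM added) and Col1a1 was lower at 96 h than at 0 h (-0.42), and their part in the results below was not tested. Both calls were fragile: Cd68 was not called without Neo replicate 1 or 2 (limma adjusted p = 0.0704 and 0.0692), nor Col1a1 without 0 h replicate 2 or 96 h replicate 3 (0.0882 and 0.0708). The second 12 h library stood apart, with an Rn45s (ribosomal precursor) share of 2.35%, against shares between 0.753% and 1.26% in the other ER-Pax7 libraries.

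In Pax7 cells Id1, Id2 and Id3 were all higher than in Neo cells, by 1.27- to 1.46-fold, and Smad7 was lower, while the receptor transcripts Bmpr1a and Bmpr2 did not pass the test. Of the 10 members, 6 passed the filter on low values (at least 0.1 FPKM in at least 2 libraries), and 4 of these were called, 3 higher and 1 lower. Of 13393 genes tested, 36.6% were called, 18.1% higher and 18.5% lower. The median log2 difference of the 6 members was 0.20 and that of all genes 0.0027.

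Bmp4 was listed at 0 in both Pax7 and both Neo libraries. Among the receptors, Bmpr1a, a type I receptor, had 1.26 and 1.20 FPKM in Pax7 cells, against 1.19 and 1.17 FPKM in Neo cells. Bmpr2, the type II receptor, had 0.449 and 0.407 FPKM in Pax7 cells, against 0.444 and 0.418 FPKM in Neo cells. The Bmpr1a libraries of both groups lay close together without overlap, and those of Bmpr2 overlapped. The log2 difference was 0.06 for Bmpr1a (95% interval -0.06 to 0.17, limma adjusted p = 0.364) and -0.01 for Bmpr2 (-0.19 to 0.18, adjusted p = 0.928). Acvr1, the other type I receptor, was listed at 0.07 and 0.07 FPKM in Pax7 cells, against 0.06 and 0.07 FPKM in Neo cells, below the filter. Gene bodies of these receptors span 91478 to 120390 bases, so most of the positions counted in this table are intronic.

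Smad7, which blocks BMP and TGF-beta receptors, had 0.201 and 0.218 FPKM in Pax7 cells, against 0.283 and 0.282 FPKM in Neo cells. Its groups did not overlap, and the log2 difference was -0.31 ± 0.06 (SE, limma adjusted p = 0.0280), from an estimated 281 and 340 reads in Pax7 cells, against 494 and 447 reads in Neo cells. In the authors' deposited table the log2 fold of Smad7 was 0, as was that of Bmpr1a, Bmpr2 and Acvr1. The size of the Smad7 difference rests on the pseudocount: it was -0.41 with 0.01 FPKM added and -0.08 with 1 FPKM added. No call remained once a library was left out: the adjusted p was 0.110 without Neo replicate 1, 0.113 without Neo replicate 2, 0.112 without Pax7 replicate 1 and 0.0752 without Pax7 replicate 2. Smad6, the more BMP-selective inhibitor, was listed at 0.03 and 0.04 FPKM in Pax7 cells, against 0.01 and 0.01 FPKM in Neo cells, below the filter. These values stand for an estimated 97 and 149 reads in Pax7 cells, against 43 and 40 reads in Neo cells, with an uncertainty from rounding of 16 to 21 reads. In a fit without the filter Smad6 differed by 0.28 (limma adjusted p = 0.0468), so Smad6 and Smad7 lay in opposite directions there.

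Id1 (chromosome 2, 152736251 to 152737410 in mm10) had 77.9 and 81.5 FPKM in Pax7 cells, against 63.7 and 62.0 FPKM in Neo cells. Id2 (chromosome 12, 25093799 to 25096092) had 70.1 and 73.4 FPKM in Pax7 cells, against 55.2 and 54.5 FPKM in Neo cells. Id3 (chromosome 4, 136143822 to 136145392) had 91.8 and 95.4 FPKM in Pax7 cells, against 63.6 and 64.7 FPKM in Neo cells. For each of the 3 genes both Pax7 libraries lay above both Neo libraries. The log2 difference was 0.34 ± 0.04 for Id1 (SE, limma adjusted p = 0.00796), 0.39 ± 0.04 for Id2 (0.00586) and 0.54 ± 0.03 for Id3 (0.00342). All 3 stayed called without each library in turn (Id1 0.30 to 0.37, Id2 0.34 to 0.42, Id3 0.50 to 0.57), and Id4 was listed at 0 in all 4 libraries. In the authors' deposited table the log2 fold was 0.31 for Id1, 0.35 for Id2 and 0.53 for Id3, with false discovery rates of 1, 1 and 0.959. Summed over the 3 genes, Id transcripts came to 239.8 and 250.3 FPKM in Pax7 cells, against 182.5 and 181.2 FPKM in Neo cells. Id3 made up 38.3% and 38.1% of that sum in Pax7 cells, against 34.8% and 35.7% in Neo cells, and Id1 made up 32.5% and 32.6% in Pax7 cells, against 34.9% and 34.2% in Neo cells. In bulk RNA, fewer cells of a kind and less RNA per cell cannot be told apart, so a higher level may lie in all cells or in some.

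**Figure D1:**
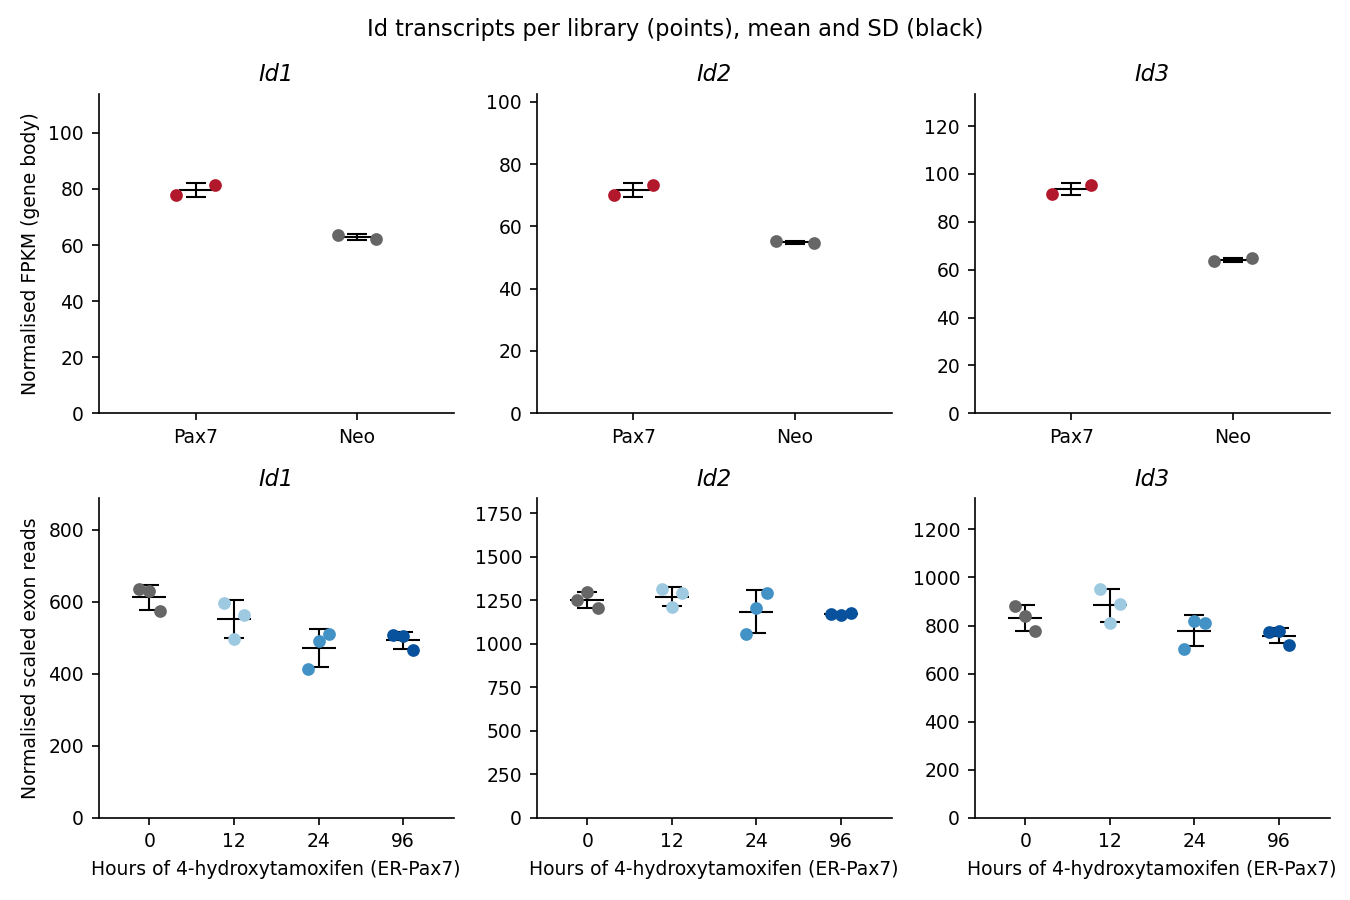
Id1, Id2 and Id3 per library. The upper row plots normalised FPKM over the gene body in Pax7 and Neo cells, and the lower row plots normalised scaled exon reads in ER-Pax7 cells by hours of 4-hydroxytamoxifen; points are libraries, and black marks are the mean and SD. Both Pax7 libraries lie above both Neo libraries for all 3 genes, and among the 3 genes Id1 is the one whose 3 libraries at 24 h and at 96 h all lie under those at 0 h and pass the test.

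In ER-Pax7 cells Id1 was lower at 24 h and at 96 h than at 0 h, and Id2 and Id3 were not called against 0 h in the model of all 12 libraries. In a model of only the 96 h and 0 h libraries both were called lower at 96 h (limma adjusted p = 0.0359 for Id2 and 0.0282 for Id3). Of the 10 members, 8 passed the filter (at least 1 scaled read in at least 3 libraries). The comparisons at 12, 24 and 96 h share the same 3 libraries at 0 h, so their values are not independent. At 12 h none of the 8 was called by limma, edgeR or DESeq2, where 6.53% of 15188 genes were called (2.92% higher, 3.61% lower), and 3 of the 8 had an unadjusted p under 0.05. At 24 h 1 of the 8 was called, lower, where 13.6% of genes were called (5.66% higher, 7.92% lower). At 96 h 1 was called, lower, where 33.8% of genes were called (16.5% higher, 17.3% lower). Between 96 h and 24 h none was called by limma, edgeR or DESeq2 and none had an unadjusted p under 0.05, where 12.6% of genes were called (6.03% higher, 6.62% lower). Over all 4 times 2 members, Id1 and Id3, were called, where 30.3% of genes were. The median log2 difference of the 8 members was 0.00 at 12 h, -0.04 at 24 h and -0.08 at 96 h, against medians of 0.0014, 0.0039 and 0.00099 over all genes.

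Id1 had 634, 630 and 573 scaled reads at 0 h, and 598, 496 and 564 at 12 h. It had 413, 491 and 511 scaled reads at 24 h, and 507, 504 and 467 at 96 h. All libraries at 24 and 96 h lay below all libraries at 0 h, and the 12 h libraries overlapped those at 0 h. The log2 difference from 0 h was -0.15 ± 0.07 at 12 h (SE, limma adjusted p = 0.268), -0.38 ± 0.07 at 24 h (adjusted p = 6.18e-04) and -0.31 ± 0.07 at 96 h (adjusted p = 0.00151). Without 12 h replicate 2 the 12 h value was -0.08. The calls at 24 h and at 96 h held without each library in turn (-0.44 to -0.29 at 24 h, -0.36 to -0.27 at 96 h). From 24 h on no further change passed the test: 96 h differed from 24 h by 0.07 (95% interval -0.08 to 0.21, adjusted p = 0.594). In the authors' deposited table Id1 has log2 folds of -0.38 at 24 h and -0.32 at 96 h, with false discovery rates of 5.2e-06 and 9.83e-07. The Id1 counts behind these values were 3608 to 7014 reads per library.

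Id2 had 1171, 1168 and 1176 scaled reads at 96 h, against 1254, 1297 and 1208 at 0 h. The 96 h libraries lay just below those at 0 h, with a log2 difference of -0.10 (95% interval -0.21 to 0.01, limma adjusted p = 0.173). Id2 was called neither at 12 h (0.02) nor at 24 h (-0.08), where its libraries ran from 1055 to 1296 scaled reads; without 24 h replicate 3 the 24 h value was -0.15 (adjusted p = 0.0489). Id3 had 883, 839 and 776 scaled reads at 0 h, 950, 812 and 891 at 12 h, 703, 819 and 810 at 24 h, and 774, 779 and 720 at 96 h. Its highest values thus lay at 12 h and its lowest means at 24 and 96 h, with overlap between the times. The log2 difference of Id3 from 0 h was 0.09 at 12 h (adjusted p = 0.549), -0.10 at 24 h (adjusted p = 0.321) and -0.13 at 96 h (adjusted p = 0.0940). Without 0 h replicate 3 Id3 was called at 96 h (-0.18, adjusted p = 0.0347). The test over all 4 times gave an adjusted p of 0.0254 for Id3, 9.14e-04 for Id1 and 0.190 for Id2. The call of Id3 over all 4 times was lost without 12 h replicate 1 (adjusted p = 0.112), 12 h replicate 3 (0.0694) or 96 h replicate 3 (0.0807). Id4, like Bmp4, had 0 reads in all 12 libraries, which allows up to 3 reads per library, or 0.244 to 0.353 scaled reads (counting error only).

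Per kilobase of exon, Id2 led the members at 0 h with 989 ± 35 scaled reads, ahead of Id3 with 878 ± 57, Id1 with 659 ± 37 and Bmpr1a with 205 ± 4 (SD, n = 3). Bmpr2 followed with 56.5 ± 5.5, Acvr1 with 12.2 ± 1.5, Smad7 with 8.21 ± 1.36 and Smad6 with 1.29 ± 0.46. The order of the 8 was the same at all 4 times, and the libraries of neighbours did not overlap except for Id2 and Id3 at 12 and 24 h. Over the gene bodies of Pax7 cells the order was Id3, Id1 and Id2, without overlap, and in Neo cells Id3 and Id1 overlapped. Id1 made up 25.8% to 26.2% of the summed Id transcripts per kilobase at 0 h, 22.7% to 24.0% at 12 h, 22.0% to 22.6% at 24 h and 22.9% to 23.8% at 96 h. In all 9 induced libraries this share lay below that of the 3 libraries at 0 h.

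The receptors kept close to their levels at 0 h, and none of the 3 was called at any time. Bmpr1a had 1057, 1074 and 1109 scaled reads at 96 h, against 1137, 1129 and 1098 at 0 h. The difference was -0.05 (95% interval -0.13 to 0.02, limma adjusted p = 0.234), the narrowest interval of the members, with 9642 to 13436 reads per library. Bmpr2 had 605, 630 and 671 scaled reads at 96 h, against 557, 650 and 672 at 0 h (0.02, 95% interval -0.10 to 0.15, adjusted p = 0.787). Acvr1 had 34.3, 42.7 and 43.5 scaled reads at 96 h, against 34.3, 42.6 and 43.1 at 0 h (0.01, 95% interval -0.21 to 0.22, adjusted p = 0.978). For all 3 receptors the 96 h and 0 h libraries overlapped. Changes of Acvr1 within about 0.21 in either direction on the log2 scale would lie inside this interval.

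Smad7 had 31.4, 34.8 and 43.1 scaled reads at 0 h, 43.7, 42.4 and 43.1 at 12 h, 38.0, 38.7 and 38.9 at 24 h, and 40.1, 39.1 and 33.5 at 96 h. The 12 h libraries lay together at the top of the range and overlapped 0 h replicate 3. The log2 difference of Smad7 at 12 h was 0.25 (95% interval 0.03 to 0.46, limma adjusted p = 0.206), and without 0 h replicate 3 it was 0.37 (adjusted p = 0.0330). At 24 h and 96 h it was 0.09 and 0.05, neither of them called. Smad6 had 2.83, 5.38 and 3.27 scaled reads at 0 h, 1.23, 1.88 and 3.17 at 12 h, 2.29, 2.77 and 1.67 at 24 h, and 2.20, 2.54 and 1.98 at 96 h. All libraries at 24 and 96 h lay below those at 0 h, at 12 to 46 reads per library over the whole series of times. The log2 difference of Smad6 was -0.65 at 12 h (adjusted p = 0.146), -0.55 at 24 h (0.162) and -0.54 at 96 h (95% interval -1.06 to -0.03, adjusted p = 0.0977), and it was called at 12 h without 12 h replicate 3 (-0.90, adjusted p = 0.0462).

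**Figure D2:**
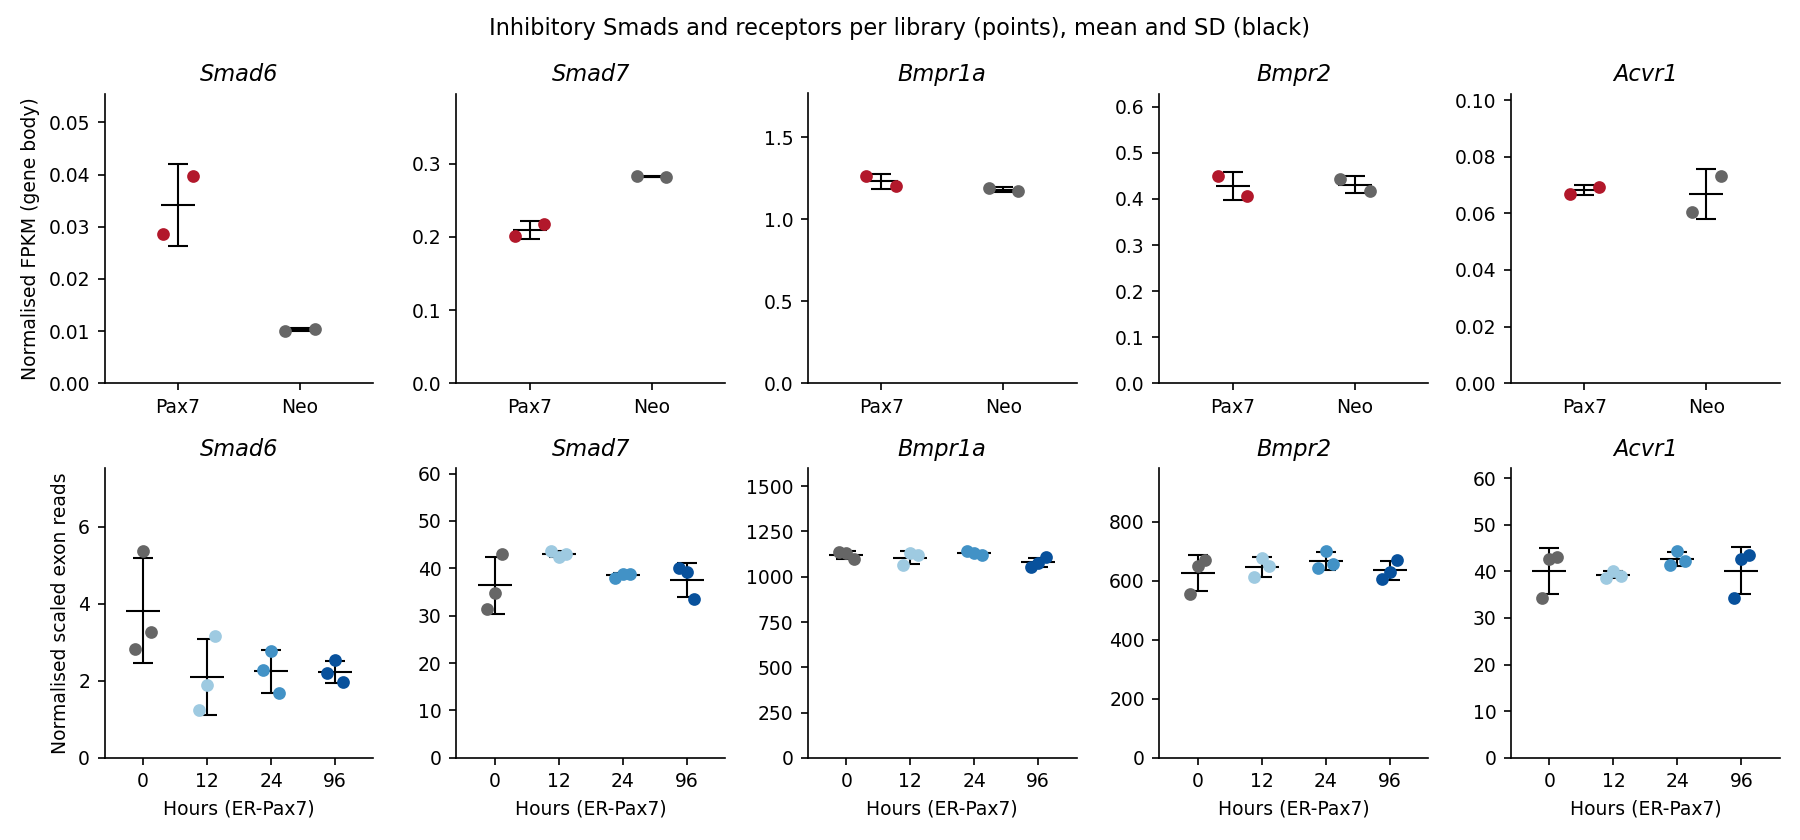
Inhibitory Smad and receptor transcripts per library. The upper row plots normalised FPKM over the gene body in Pax7 and Neo cells, and the lower row plots normalised scaled exon reads in ER-Pax7 cells by hours of induction; points are libraries, and black marks are the mean and SD. Smad7 is lower in both Pax7 libraries than in both Neo libraries, Smad6 lies at a few scaled reads, and the receptors overlap between 96 h and 0 h.

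**Figure D3:**
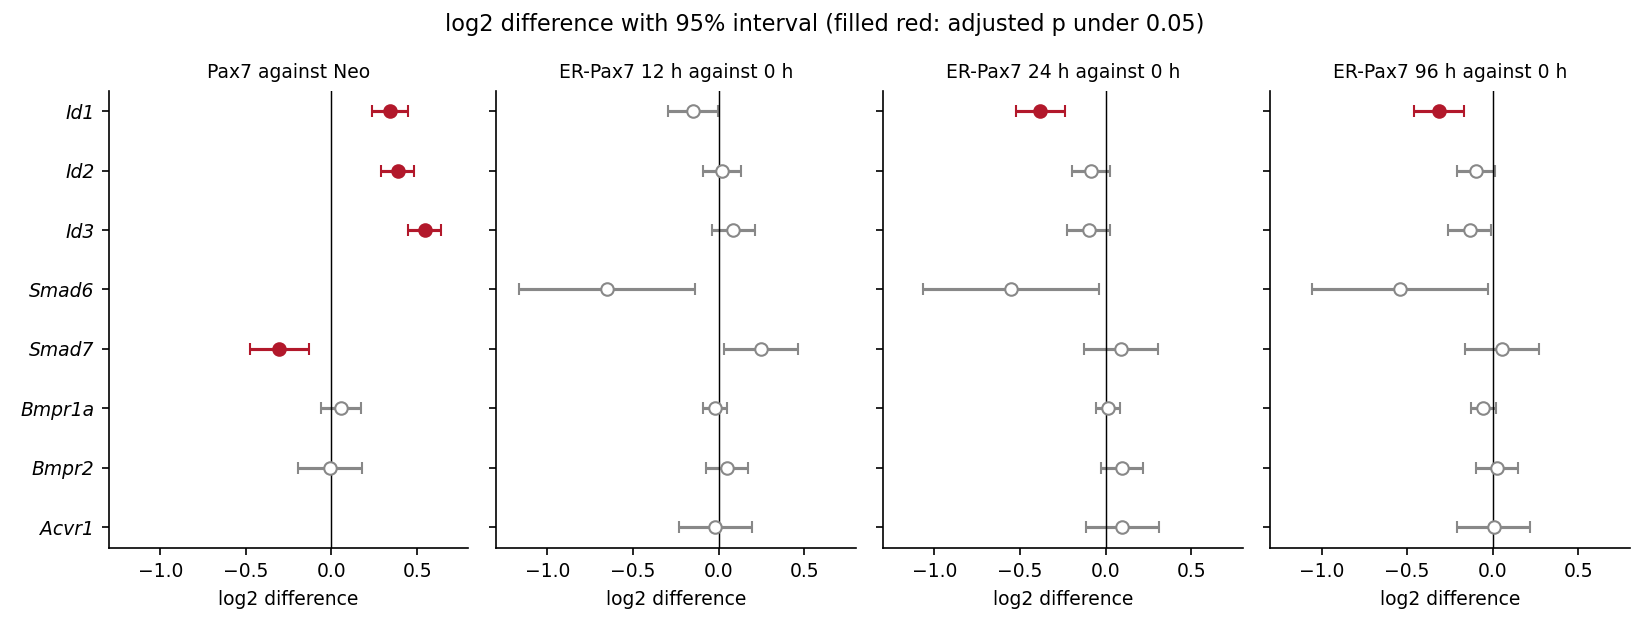
log2 differences of the 8 members above 0 with 95% intervals (horizontal axes), for Pax7 against Neo and for 12, 24 and 96 h against 0 h in ER-Pax7 cells; filled red points have a limma adjusted p under 0.05, and Smad6 and Acvr1 were below the filter in the first panel. Id1 is filled on the right of 0 in Pax7 cells (0.34) and on the left at 24 h (-0.38) and 96 h (-0.31).

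Around the members, a list of 61 further BMP pathway genes was followed in both tables. In Pax7 cells 31 of the 61 were tested, and 4 were higher and 3 lower than in Neo cells, with a median of 0.03, where 36.6% of all genes were called. Leaving out 1 library brought these 7 down to 4 (without Neo replicate 1 or 2) or 5 (without Pax7 replicate 1 or 2). In ER-Pax7 cells 36 were tested: 2 were higher and none lower at 12 h, 1 higher and 4 lower at 24 h, and 7 higher and 7 lower at 96 h, when the median was -0.05. Of all genes, 6.53% were called at 12 h, 13.6% at 24 h and 33.8% at 96 h. The 2 calls at 12 h came down to 1 without 0 h replicate 3, 12 h replicate 2 or 12 h replicate 3, and the 5 at 24 h to 3 without 0 h replicate 1 or 24 h replicate 2. Of 14 ligand genes 4 were tested in ER-Pax7 cells. Bmp7 had 74.0 ± 5.0 scaled reads at 96 h and 84.0 ± 6.7 at 0 h (SD, n = 3) and was not called (-0.18, limma adjusted p = 0.0640). Bmp8b was lower at 96 h (-0.32), a call lost without 0 h replicate 3 (-0.29, adjusted p = 0.0517). Bmp1, which is filed by name with the ligands but is a protease that cleaves procollagen and the antagonist chordin, had 249, 240 and 246 scaled reads at 0 h, 222, 235 and 214 at 12 h, 195, 198 and 205 at 24 h, and 161, 167 and 162 at 96 h. Its libraries lay in descending order of time without overlap, and it was called lower at 24 h (-0.30) and at 96 h (-0.59, adjusted p = 7.88e-09), but not in Pax7 against Neo cells, where it averaged 0.706 FPKM in Pax7 cells and 0.745 FPKM in Neo cells.

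Among the signal-transducing Smads, Smad9 had 288, 311 and 297 scaled reads at 0 h, 340, 376 and 367 at 12 h, 372, 374 and 353 at 24 h, and 412, 419 and 444 at 96 h. Every induced library lay above every 0 h library, and Smad9 was called at 12 h (0.27), 24 h (0.29) and 96 h (0.51, limma adjusted p = 5.24e-08), also without each library in turn. Smad5 moved the other way at 96 h, with 120, 128 and 133 scaled reads against 156, 155 and 161 at 0 h (-0.31, adjusted p = 2.00e-04). Smad1 (0.09 at 96 h) and the shared partner Smad4 (0.05) were not called. None of the 4 was called in Pax7 against Neo cells.

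Among genes acting at the cell surface, Rgma, a BMP co-receptor, had 0.363 and 0.337 FPKM in Pax7 cells, against 0.717 and 0.668 FPKM in Neo cells (-0.82, limma adjusted p = 0.00460, and -0.33 with 1 FPKM added). Rgma was also lower at 96 h, with 78.8, 88.4 and 88.0 scaled reads against 102, 108 and 104 at 0 h (-0.30, adjusted p = 0.00215). The type I receptor gene Acvrl1 was lower at 24 h (-0.69) and 96 h (-0.56), at 4.90 ± 0.77 and 5.49 ± 0.93 scaled reads against 8.54 ± 1.49 at 0 h (SD, n = 3). With 5 scaled reads added, Acvrl1 differed by -0.45 at 24 h and -0.37 at 96 h. These calls of Acvrl1 were lost at 24 h without 0 h replicate 1, 24 h replicate 2 or 24 h replicate 3 (-0.57, -0.68 and -0.61), with adjusted p = 0.122, 0.0646 and 0.0910. At 96 h they were lost without 0 h replicate 1, 0 h replicate 3, 96 h replicate 2 or 96 h replicate 3 (-0.43, -0.61, -0.46 and -0.54), with adjusted p = 0.161, 0.0524, 0.146 and 0.0932. Of 16 extracellular antagonists 6 were tested in ER-Pax7 cells. Fstl3, a secreted binder of activin and BMPs, had 15.8, 14.1 and 15.4 scaled reads at 96 h against 25.1, 25.1 and 25.0 at 0 h (-0.70, adjusted p = 4.52e-04). Crim1, a transmembrane BMP binder, was lower at 96 h (-0.36), and Twsg1, which binds BMPs together with chordin, was higher (0.15). Twsg1 was also called in Pax7 cells (0.17, adjusted p = 0.0420), but not without any 1 of the 4 libraries (0.13 to 0.21, adjusted p = 0.0615 to 0.157) or without TMM factors (0.0659).

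Of 11 intracellular regulators, 10 were tested in both tables. Smurf1, a ubiquitin ligase for Smad1 and Smad5, had 0.574 and 0.546 FPKM in Pax7 cells, against 0.384 and 0.376 FPKM in Neo cells (0.46, limma adjusted p = 0.00815, and 0.18 with 1 FPKM added). It was also higher at 96 h, with 335, 328 and 303 scaled reads against 258, 269 and 254 at 0 h (0.30, adjusted p = 2.85e-05). Skil, a co-repressor that binds Smads, was higher in Pax7 cells (2.60 and 2.52 FPKM, against 1.87 and 1.97 FPKM in Neo cells; 0.40) and at 96 h (0.23). The calls of Smurf1 and Skil in Pax7 cells and at 96 h held without each library in turn. In Pax7 cells Smurf2 (-0.23, and -0.12 with 1 FPKM added) and the Smad phosphatase gene Ppm1a (-0.18) were lower, and both calls were lost without any 1 of the 4 libraries (Smurf2 adjusted p = 0.0687 to 0.0875, Ppm1a 0.0568 to 0.0824) and without TMM factors (0.118 and 0.145). Rgma, Twsg1, Smurf1 and Skil were thus called in the same direction in Pax7 cells and at 96 h, although the call of Twsg1 in Pax7 cells was fragile. Of all genes, 36.6% were called in Pax7 against Neo cells and 33.8% at 96 h. The share of all genes called in the same direction in both is not given.

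Among other genes known as BMP targets, Hey1, a repressor also driven by Notch, had 7.0 and 7.64 FPKM in Pax7 cells, against 2.99 and 2.82 FPKM in Neo cells (1.30, limma adjusted p = 0.00215). In ER-Pax7 cells Hey1 stayed between 58.6 and 77.5 scaled reads and was not called at 96 h (-0.06, adjusted p = 0.620). Atoh8, a basic helix-loop-helix gene, had 18.1, 17.0 and 18.5 scaled reads at 96 h against 7.07, 7.59 and 5.80 at 0 h (1.28, adjusted p = 4.31e-07), and at 24 h it had 8.93, 7.13 and 7.95. Its step thus lay between 24 h and 96 h (1.07, adjusted p = 2.51e-05). Msx1, a homeobox gene, was higher at 96 h (127 ± 5 scaled reads against 103 ± 5 at 0 h, SD, n = 3; 0.30, adjusted p = 5.52e-04). The targets Id1, Atoh8 and Msx1 therefore did not share a direction at 96 h.

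**Figure D4:**
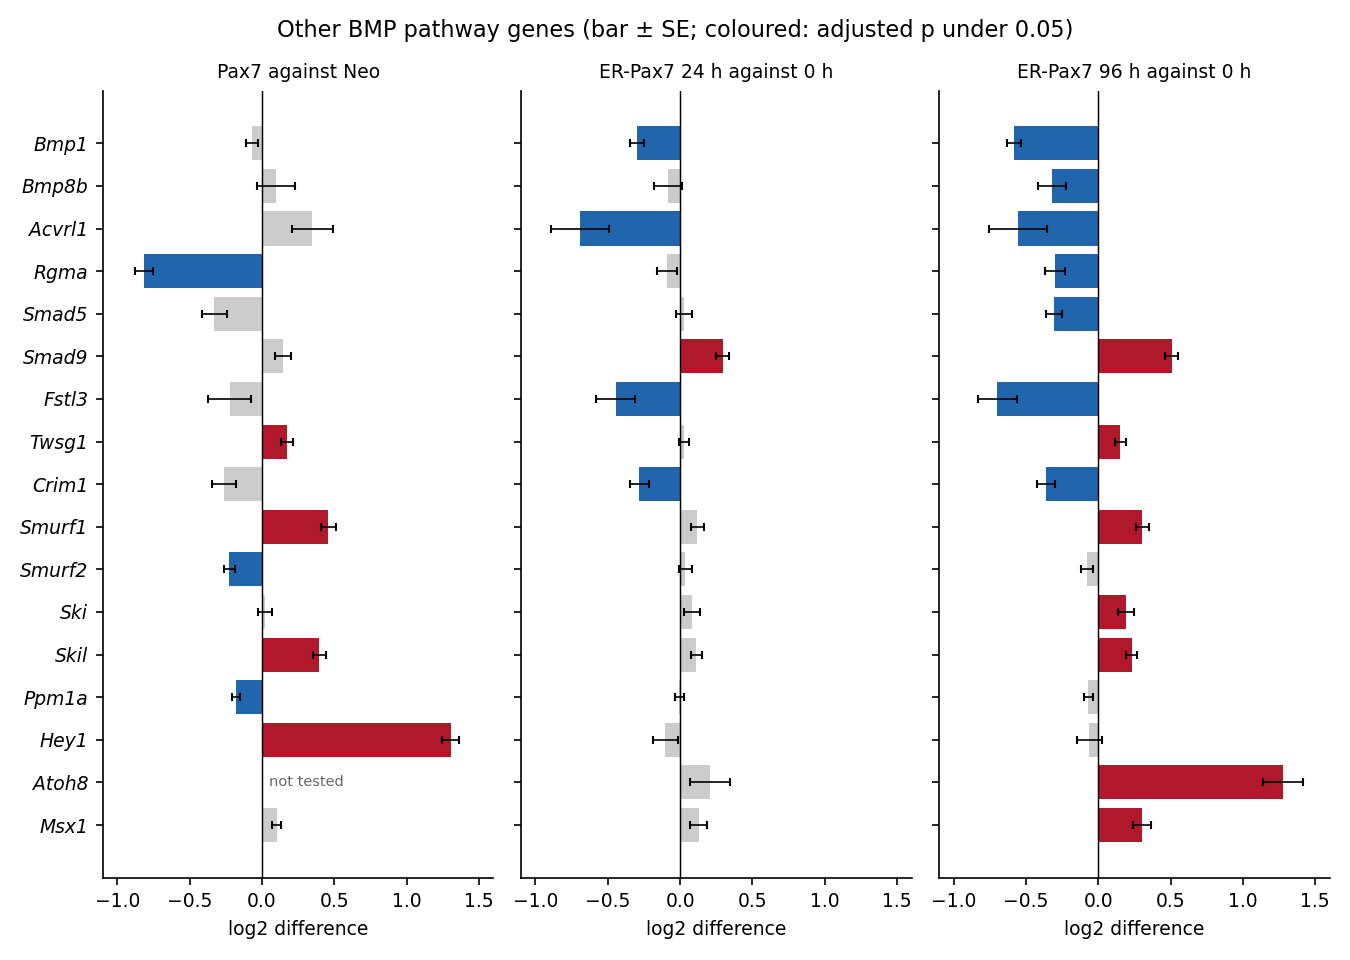
log2 differences (bars, ± SE) of the other BMP pathway genes called in Pax7 against Neo cells or at 24 or 96 h against 0 h, grouped from ligands at the top to targets at the bottom; coloured bars have a limma adjusted p under 0.05 (red higher, blue lower), and Atoh8 was below the filter in the first panel. Rgma is lower and Smurf1, Skil and Twsg1 are higher in the panels for Pax7 cells and for 96 h, Hey1 stands out in Pax7 cells (1.30) and Atoh8 at 96 h (1.28).

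Among genes whose proteins Id factors bind or oppose, some were called in each direction. Over a list of 7 such genes, 5 were called at 96 h, 2 higher and 3 lower, where 33.8% of all genes were called. In Pax7 against Neo cells 4 were called, 1 higher and 3 lower, where 36.6% were. Among the 3 lower, Neurod4 averaged 0.0195 FPKM in Pax7 cells and 0.133 FPKM in Neo cells. It passed the filter through the Neo libraries alone, so its direction was fixed by the filter. The calls of Neurod1 (-0.20) and Hes1 (0.29) there each held in only 1 of the 4 fits without 1 library. Of the E protein genes, Tcf4 had 3196 to 3306 scaled reads at 96 h and 3562 to 3924 at 0 h (-0.22, limma adjusted p = 1.96e-04). Tcf3 was lower at 96 h (-0.22, adjusted p = 0.00557, with overlapping libraries, and -0.15 without 0 h replicate 1) and in Pax7 cells (3.53 and 3.52 FPKM, against 4.32 and 4.11 FPKM in Neo cells; -0.25), the call in Pax7 cells being lost without either Pax7 library (-0.25 and -0.26; adjusted p = 0.0681 and 0.0649) and without TMM factors (0.0959). Hes1, a transcriptional repressor driven by Notch, had 30.01, 32.1 and 33.4 scaled reads at 96 h against 51.2, 48.9 and 53.0 at 0 h (-0.67, adjusted p = 5.22e-06).

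Pomc, the hormone gene that BMP4 is known to restrain, had 74546, 73351 and 75728 scaled reads at 24 h against 95371, 90200 and 93547 at 0 h (-0.32, limma adjusted p = 2.05e-04). At 96 h it had 95175, 90001 and 88189 scaled reads, above 24 h (0.29, adjusted p = 8.71e-04) and overlapping 0 h. Id1 and Pomc were thus both lower at 24 h, where 7.92% of all genes were called lower. At 96 h Pomc overlapped its libraries at 0 h while those of Id1 lay below 0 h. In Pax7 against Neo cells, where Id1 was called higher, Pomc was tested and not called. A link between the levels of Id1 and Pomc was not tested.

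In the related TGF-beta and activin branch, Tgfb3, a secreted ligand, had 1.15 and 1.20 FPKM in Pax7 cells, against 0.424 and 0.418 FPKM in Neo cells (1.29, limma adjusted p = 0.00176, and 0.61 with 1 FPKM added). In ER-Pax7 cells Tgfb3 had 70.8, 76.0 and 73.9 scaled reads at 0 h, 101, 109 and 89.0 at 12 h, 105.5, 105.7 and 105.7 at 24 h, and 160, 146 and 149 at 96 h. It was higher than at 0 h at every time (0.43, 0.52 and 1.03), without overlap. Of 12 genes of this list 8 were tested in ER-Pax7 cells, and 3 were higher and 2 lower at 96 h, where 33.8% of all genes were called (16.5% higher, 17.3% lower).

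By their log2 differences from 0 h at 12, 24 and 96 h, the genes nearest to Id1 among 10675 genes with a mean of at least 50 scaled reads were Egfl7, Spsb2 and Gstm7, with root mean square distances of 0.0189, 0.0230 and 0.0243. The nearest to Id2 were Pnp, Zfyve1 and Blvra (0.00157 to 0.00721), and to Id3 Mgarp, Fam110a and Acot11 (0.00914 to 0.0221). These distances describe 3 time points that share the libraries at 0 h.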

How the data were processed

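Total RNA of AtT-20 cells was sequenced after ribosomal depletion, and groups and replicate numbers come from the labels. Whether replicates were separate cultures is not stated in the labels; the p-values therefore cover only spread among these libraries, possibly technical. Per the submitters' processing notes the build was mm10 (GRCm38) and the tools were TopHat, HOMER and edgeR, with no version given. For ER-Pax7 the authors counted exon reads with HOMER, without a strand setting, and deposited them as a signal, the reads rescaled to 1 shared total, per the file headers. For Pax7 and Neo the authors deposited FPKM over gene bodies, introns included, per the file headers. The authors' deposited log2 folds, p-value and false discovery rate columns come from edgeR, per the file headers, and are quoted only where named. Without strand, antisense partners cannot be told apart; Id4 and Bmp4 overlap a gene on the opposite strand, and both were at 0.

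TMM factors (edgeR 4.0.16) normalised the libraries, and the values were tested on the log2 scale with limma 3.58.1 (R 4.3.3; moderated variance with a mean trend; all 12 ER-Pax7 libraries in 1 model), with Benjamini-Hochberg adjustment over 15188 or 13393 genes. A pseudocount of 1 scaled read or 0.1 FPKM was added, after filters of 1 scaled read in 3 libraries and 0.1 FPKM in 2. For ER-Pax7, 100% of low values were whole reads within 0.1 reads once divided by the value of 1 read, so these reads served edgeR and DESeq2 1.42.0 as alternatives. These called 994 and 1180 genes at 12 h, 2043 and 2249 at 24 h, and 5130 and 5268 at 96 h. Reads carry no molecular identifiers, and the 2 mates of a pair may be counted separately. None of the 12 pairs of ER-Pax7 libraries within a group agreed within sampling noise; Pax7 and Neo pairs were not compared in this way. The script was tested on simulated data. All 10 members are named, other lists by their called genes and a few uncalled ones, and the 3 nearest genes by a distance rule. The members and lists were chosen with earlier results of these data known. Other alternatives were pseudocounts, filters, factors, no trend, a replicate block, only the times compared, and each library left out. The values of 1 listed gene are not reported here.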

Additional observations from a re-analysis of the deposited data

Results flagged for a closer look

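Id1 was higher in both Pax7 libraries than in both Neo libraries (log2 difference 0.342) and lower in all 3 libraries at 96 h than in all 3 at 0 h (-0.313). Id2 lay the same way, 0.386 in Pax7 against Neo cells and -0.0963 at 96 h, where it was not called. Acvrl1 (0.347 in Pax7 against Neo cells, -0.556 at 96 h) and Smad1 (-0.05 and 0.0894) also lay in opposite directions, with no overlap of groups in either system. The same held for Smad6, at 0.282 in Pax7 against Neo cells in the fit without the filter and -0.542 at 96 h. Among the other lists it held for Hes1 (0.293 and -0.666), Neurod1 (-0.202 and 0.305), Inha (0.309 and -0.249), Smad2 (0.136 and -0.073) and the corticotrope factor gene Pitx1 (-0.231 and 0.246). These genes are listed because the libraries of the groups compared did not overlap in either system, with opposite directions. The share of all genes that meets this rule is not given. Acvrl1, Smad1, Inha and Smad2 were not called in Pax7 against Neo cells, and Smad1, Smad2 and Smad6 were not called at 96 h. In Pax7 against Neo cells the calls of Hes1, Neurod1 and Pitx1 each held in only 1 of the 4 fits without 1 library. With the replicate block these calls were lost (limma adjusted p = 0.0569, 0.0591 and 0.0632). At 96 h the call of Inha held in 7 and that of Acvrl1 in 8 of the 12 fits without 1 library. The difference between the systems was not tested, since the tables differ in what was counted (gene bodies or exons) and in unit.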

How the results depend on the processing

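Depth limits Smad6, with 12 to 46 reads per ER-Pax7 library, and 2 libraries a group limit Pax7 against Neo. Of the members in that comparison, 3 were called without each library in turn (3 in all 4 fits), as were 0 to 1 at 12 h, 1 to 2 at 24 h, 1 to 2 at 96 h, 0 to 0 between 96 h and 24 h and 1 to 3 over all 4 times. Among all genes 1957 to 2730 were called in Pax7 against Neo cells, 709 to 1022 at 12 h, 1458 to 2193 at 24 h, 4141 to 5335 at 96 h, 1260 to 2108 between 96 h and 24 h and 3541 to 4752 over all 4 times. In fits of only the 2 times compared 3 members were called at 96 h, with Id2 (adjusted p = 0.0359) and Id3 (0.0282) added. Over all 4 times 1 member was called with no filter (Id3 0.0968) and 1 without the trend (Id3 0.165). Without TMM factors Bmpr2 turned to 0.0533 in Pax7 cells, the median of all genes moved by 0.0718 and 67.7% of calls were higher, against 49.4% with the factors. The cause was not tested.

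Values not called also changed sign with 1 library left out. At 12 h Id2 ran between -0.00755 and 0.0557, Bmpr1a between -0.0390 and 0.00148, Bmpr2 between -0.0351 and 0.0994 and Acvr1 between -0.1265 and 0.0324. At 24 h Smad7 ran between -0.00764 and 0.214, Bmpr1a between -0.0038 and 0.0222 and Acvr1 between -0.00707 and 0.152. At 96 h Smad7 ran between -0.0462 and 0.1756, Bmpr2 between -0.0575 and 0.0770 and Acvr1 between -0.0986 and 0.112. Between 96 h and 24 h Id1 ran between -0.0250 and 0.1305, and in Pax7 against Neo cells Bmpr2 ran between -0.0663 and 0.0393.

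Replicate numbers were not taken as pairing, since the labels do not state that equal numbers share a culture or day. Of 18 ER-Pax7 pairs with the same number, 9 had deviations correlated above 0.1, against 4 of 36 pairs with different numbers, so pairing may be present. As a hint from the data, 10 of 12 ER-Pax7 libraries correlated best, on average, with their own number. These correlations are not independent of each other, since deviations were taken from the mean of each time. For Pax7 and Neo r was 0.0389 with the same number and -0.0389 with different numbers. With 2 libraries a group these values mirror each other by construction. With the replicate block Smad7 in Pax7 cells had an adjusted p of 0.0600, and 3 members were called there. Among all genes the block gave 3305 calls in Pax7 against Neo cells, 1246 at 12 h, 2538 at 24 h, 5755 at 96 h, 2515 between 96 h and 24 h and 5456 over all 4 times.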
